A study of Mus musculus with 401 samples.

Results

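The spindle checkpoint delays anaphase until every chromosome is attached to the spindle, and the chromosomal passenger complex corrects wrong attachments at the centromere. In mammalian oocytes both act at the meiotic divisions, which fully grown oocytes resume after a long arrest at the germinal vesicle stage, on messenger RNA stored during growth. Levels are given here for 10 genes of these pathways among the 43633 gene identifiers of the deposited count tables. They are the checkpoint kinases Bub1 and Ttk (also called Mps1), the checkpoint proteins Bub1b (BubR1), Bub3, Mad1l1 (Mad1) and Mad2l1 (Mad2), the kinase Nek2, and the passenger genes Aurkb, Aurkc and Incenp. The members were chosen by name, and all 10 had a row in both count tables.

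Single oocytes and the pool of cumulus cells around each were taken from fully grown follicles of B6D2F1 female mice, hybrids of C57BL/6 and DBA/2, and sequenced by RamDA-seq, which copies total RNA along whole transcripts. The first set held young (2 months), middle (9 months) and old (14 months) mice fed without limit, and calorie-restricted mice of 9 months (CR), which were housed singly and received food once a day, 40% less of it since adulthood. The mice of this set were hyperovulated with eCG (equine chorionic gonadotropin) or the CARD HyperOva reagent 48 h before collection. The second set, sequenced apart, held hyperovulated mice of 2, 4, 9 and 14 months (2mo, 4mo, 9mo and 14mo) and mice of 2 months without hyperovulation (2moNoH). The oocyte libraries numbered 16 young, 14 middle, 16 old and 27 CR in the first set, and 24, 39, 16 and 16 from 2 to 14 months with 32 of 2moNoH in the second set. The cumulus libraries numbered 15 young, 15 middle, 16 old and 25 CR, and 24, 40, 16, 16 and 32. They came from 41 mouse labels: 2 young, 4 middle, 2 old and 3 CR, then 5 (2mo), 8 (4mo), 4 (9mo), 5 (14mo) and 8 (2moNoH). The old label Old1_2 joins a pair of mice, and Middle3 gave 1 oocyte library. The models are bound to 1 hybrid strain, to follicles that a hormone dose had recruited (2moNoH apart), and to oocytes before meiotic resumption.

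Totals ranged from 510029 to 4536690 counts per library. The median total was 3578882 counts in CR oocytes and 2332126 in middle oocytes, and 2019007 against 1091806 in their cumulus cells, so that the diet and the deeper sequencing cannot be told apart. One middle complex was left out, as its oocyte library correlated with cumulus libraries (r = 0.91) more than with oocytes (r = 0.71). In the oocytes used, 10 cumulus marker genes summed to a median of 1.36% to 5.70% of their level in cumulus cells, by group, and the old oocytes were highest. Oocyte markers in cumulus libraries had group medians of at most 0.02% of their level in oocytes. Old oocytes also stood apart in oocyte markers, which summed to a median of 76.7% of the level of the median oocyte, against 102% in young oocytes. The summed median of the theca and stroma markers was at most 16.9 CPM (counts scaled to a common library size) in any group and that of the blood and immune markers at most 9.85 CPM. The 4 endothelial markers summed to a median of 100.3 to 147 CPM in oocytes, which express some of them.

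Aurkc, the kinase of the passenger complex that is known from germ cells, lies on chromosome 7 and has a processed pseudogene, Gm12463, on chromosome 4. Over 828 coding bases aligned without gaps they differ at 4 bases (99.5% identical), and they are shown because they are nearly identical. The sequences below are 120 bases of the Aurkc coding sequence (GRCm38, chr7:7002521-7002901, plus strand, spanning 2 exons) and the matching bases of Gm12463 (GRCm38, chr4:44752339-44752458, minus strand). Capitals mark the 2 bases that differ.
Aurkc: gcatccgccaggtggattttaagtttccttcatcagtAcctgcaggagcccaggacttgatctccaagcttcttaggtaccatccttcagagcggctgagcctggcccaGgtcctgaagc
Gm12463: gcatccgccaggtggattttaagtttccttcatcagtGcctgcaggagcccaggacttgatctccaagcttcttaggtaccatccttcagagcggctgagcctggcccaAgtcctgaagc
The authors shared reads that mapped to several places between genes, and 92.4% of the nonzero Aurkc counts of the first set were not whole numbers. Gm12463 held 22% to 23% of the counts of both in the 9 oocyte groups. The Aurkc levels below are therefore uncertain in size, and with the counts of both added its changes over mice kept their direction and their side of the threshold in the comparisons of CR, old and 14mo oocytes.

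Promoters were read for the 8 members that the RefSeq table (GRCm38.p6) holds, from 250 bases before to 50 after each start. In these windows the letters TTTGAA, the core of the cell cycle genes homology region, occurred on either strand in 3 of 8 members (Bub1b, Bub3 and Ttk), and in 17.9% of 32851 promoters. The letters CCAAT, the CCAAT box, occurred in 6 of 8 members (Aurkc, Bub1, Bub1b, Bub3, Nek2 and Ttk), and in 37.4% of all promoters. The members were counted by gene and the rest by promoter. The 8 members have 10 promoters, 2 each for Bub3 and Mad1l1, so the shares are not strictly alike. No match of 1 motif overlapped a match of the other. The bases from 150 before to 30 after the start are shown for Bub1b (chr2:118598061-118598240, plus strand) and Ttk (chr9:83834539-83834718, plus strand), the pair of checkpoint genes with the largest oocyte to cumulus differences below. Capitals mark either motif, on the strand it was found, and the TTTGAA of Bub1b began 40 bases after the start, outside the stretch shown.
Bub1b: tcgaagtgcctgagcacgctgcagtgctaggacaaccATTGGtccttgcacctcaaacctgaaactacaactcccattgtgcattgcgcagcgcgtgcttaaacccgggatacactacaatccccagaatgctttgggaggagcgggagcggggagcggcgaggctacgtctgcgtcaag
Ttk: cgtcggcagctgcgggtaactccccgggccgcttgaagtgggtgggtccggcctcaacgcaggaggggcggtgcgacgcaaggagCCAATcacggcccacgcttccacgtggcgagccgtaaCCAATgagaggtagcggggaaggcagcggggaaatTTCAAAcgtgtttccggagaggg
These matches are letters in a window and not measured binding.

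Oocytes held RNA of all 10 genes, and Bub1b was the most abundant for its length. Levels are CPM on library sizes scaled by the TMM method within a set, averaged over the libraries of each mouse, and given as mean ± SD over mice. Per kb of gene length, the oocytes of 2mo mice (n = 5 mice) held Bub1b at 608 ± 33.3 CPM per kb. Bub1b (ENSMUSG00000040084, GRCm38 chromosome 2, 118598211 to 118641591) encodes the checkpoint protein that holds back the anaphase-promoting complex. Aurkc (ENSMUSG00000070837, chromosome 7, 6995300 to 7003091) followed at 202 ± 8.36 CPM per kb, and Ttk (ENSMUSG00000038379, chromosome 9, 83834689 to 83872389) at 65.8 ± 3.68. Ttk is the kinase that starts checkpoint signalling at unattached kinetochores. Incenp (ENSMUSG00000024660, chromosome 19, 9872296 to 9899551), the scaffold of the passenger complex, stood at 54.3 ± 3.95 CPM per kb and Bub1 (ENSMUSG00000027379, chromosome 2, 127801122 to 127831865) at 41.7 ± 3.27. Nek2 (ENSMUSG00000026622, chromosome 1, 191821444 to 191833050) and Bub3 (ENSMUSG00000066979, chromosome 7, 131560222 to 131571895) were at 29.2 ± 0.68 and 29.2 ± 0.41 CPM per kb and did not differ beyond this spread. Nek2 is a kinase of centrosome separation, and Bub3 carries Bub1 and Bub1b to kinetochores. Mad1l1 (ENSMUSG00000029554, chromosome 5, 140008689 to 140321552), which recruits Mad2, was at 24.2 ± 1.45 CPM per kb and Mad2l1 (ENSMUSG00000029910, chromosome 6, 66535390 to 66547220), the inhibitor of Cdc20, at 15.8 ± 1.25. Aurkb (ENSMUSG00000020897, chromosome 11, 69045647 to 69051664), the passenger kinase of dividing somatic cells, was lowest at 11.7 ± 1.33 CPM per kb. Bub1b and Aurkc led in all 9 oocyte groups and Aurkb was lowest, while Ttk stood above Incenp in every group but young, where Incenp (57.8 CPM per kb) was above Ttk (55.0). The order between them depends on the gene length used, 8390 bases for Mad2l1 and 7006 for Bub3 but 3649 for Mad1l1 and 3217 for Incenp. In CPM, not divided by length, Mad2l1 (133) stood above Mad1l1 (88.4) and Bub3 (204) above Incenp (175) in 2mo oocytes. Of the nonzero counts of Bub3, Mad1l1, Mad2l1 and Nek2, 34.5% to 52.5% were not whole and so also held shared reads, and 298 of the 4516 exon bases of Nek2 overlap the antisense gene Gm38037, whose reads cannot be told apart without strand.

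**Figure D1:**
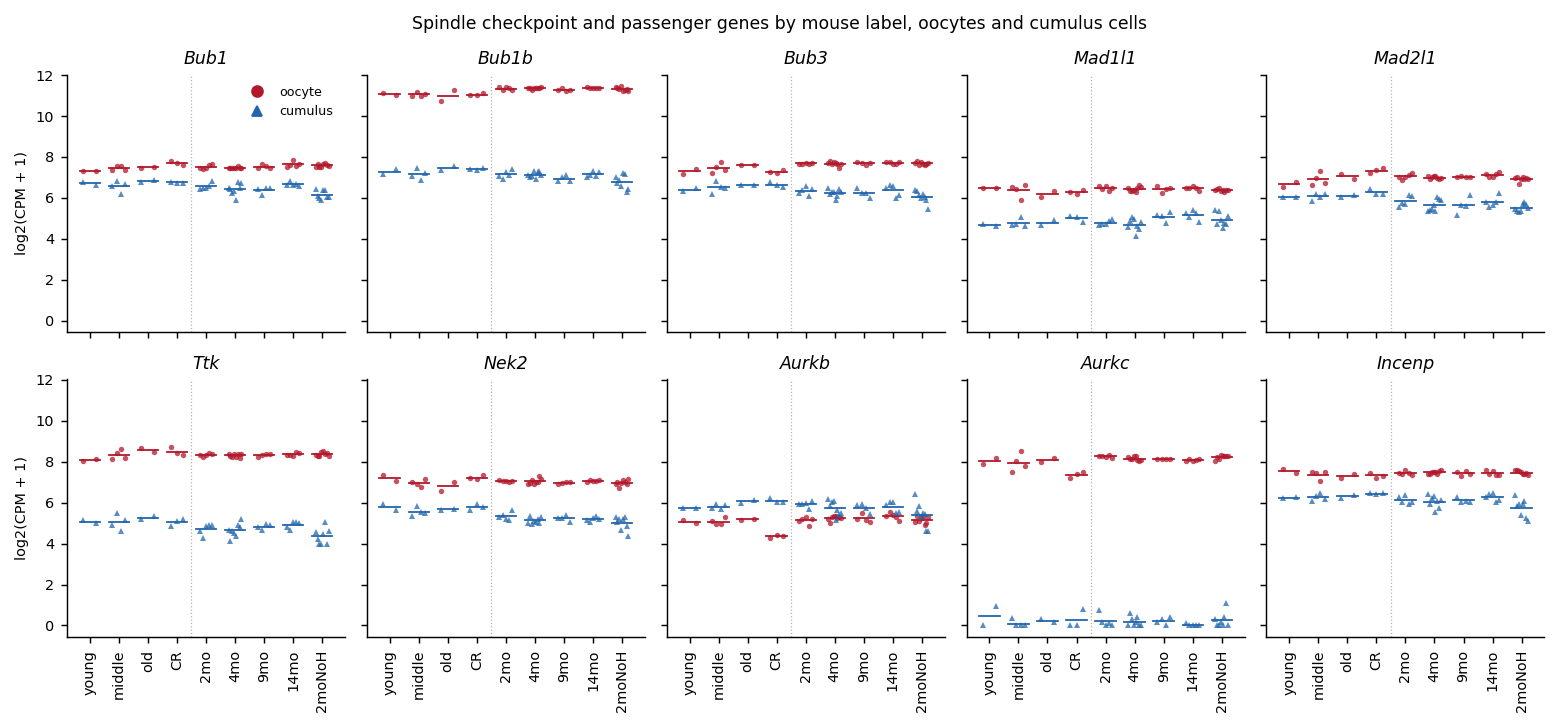
Each panel plots 1 gene on log2(CPM + 1), a pseudocount of 1, with the 9 groups along the bottom (the first set left of the dotted line); points are mouse labels, circles oocytes and triangles cumulus cells, and bars the mean over mice. Oocytes lay above cumulus cells for 9 genes, Aurkc was near 0 in cumulus cells, and for Aurkb the triangles lay above the circles in most groups.

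Across groups, the Bub1b level in oocytes ran from 2074 ± 503 CPM in old mice to 2655 ± 67.7 in 14mo mice, a pair that belongs to different sets and was not tested. Within the first set the Bub1b means of the 4 groups lay between 2074 and 2165 CPM. Within the second set they lay between 2500 (9mo) and 2655 CPM (14mo). Single oocytes of 1 group were closer in the second set, where the coefficient of variation over libraries was 7.08% to 9.80% for Bub1b, than in the first set, where it was 13.1% to 27.1%. Aurkb varied more than Bub1b in every group but young, by 18.2% to 34.2% over the libraries of a group, at a median of 56 to 76 counts per oocyte. Bub1b rested on a median of 3997 to 6278 counts per oocyte.

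In cumulus cells the order was another. Fewer cells of a type and less RNA per cell cannot be told apart in these pools. In 2mo mice (n = 5) Bub1b was again highest, at 33.2 ± 4.45 CPM per kb. Incenp (21.8 ± 2.83), Bub1 (21.6 ± 2.51) and Aurkb (20.3 ± 1.91 CPM per kb) followed and did not differ from each other beyond this spread. Bub3 was at 11.5 ± 1.53 CPM per kb, Nek2 at 8.80 ± 1.17, Mad1l1 at 7.31 ± 0.59, Mad2l1 at 6.87 ± 1.30 and Ttk at 5.19 ± 0.93. Aurkc was at 0.12 ± 0.19 CPM per kb.

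Aurkc was all but missing from cumulus cells. In 2mo cumulus libraries, 20 of 24 held no Aurkc count and the sum over all 24 was 3.5 counts, against a median of 563 counts in each oocyte. The oocyte level was 2129 times the cumulus level, with a counting interval of 783 to 8817 (95%, Poisson, counting error only). In 2moNoH cumulus libraries 25 of 32 held none, with a sum of 7.5 counts and a ratio of 1283 (638 to 3074). The young group had 9 of 15 libraries at 0, a sum of 17.3 counts and a ratio of 343 (215 to 586), and the CR group 19 of 25 at 0, a sum of 18.8 and a ratio of 526 (336 to 876). In CR, 12.8 of these counts came from 1 library, and in young mice 8.83. Without that library the ratio was 1604 (737 to 4376) in CR and 651 (337 to 1463) in young mice, an alternative added after seeing the data. In both the young and the CR group, the cumulus library with most Aurkc counts also held the most oocyte marker RNA. Aurkc made up 93.0% to 94.5% of Aurkb and Aurkc together per kb in the 9 oocyte groups (means over mice), and at most 1.68% in the cumulus groups.

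Oocytes were compared with cumulus cells of the same group in young, CR, 2mo and 2moNoH mice. Counts were summed per mouse and tested with edgeR's quasi-likelihood test, with Benjamini-Hochberg adjustment over all genes tested and a threshold of 0.05. A fold change comes from the scaling of that test and need not equal the ratio of the levels printed. In each group 9 of 10 members were called higher in oocytes, beside 43.4% of all genes in young, 41.3% in CR, 41.7% in 2mo and 41.1% in 2moNoH mice. Aurkb was called lower in oocytes in CR and 2mo mice and not called in young and 2moNoH mice, beside 35.3%, 37.4%, 43.1% and 45.5% of all genes called lower in young, CR, 2mo and 2moNoH mice. The median log2 fold change of all genes was 0.26 in young, 0.10 in CR, -0.05 in 2mo and -0.20 in 2moNoH mice. With relative log expression scaling it moved by -0.12, -0.17, -0.07 and -0.08, and with libraries as units by -0.47, -0.21, -0.11 and -0.07. The members are therefore given relative to the median of all genes, on the log2 scale. Their adjusted p-values test the fitted fold change against 0, before that median is taken off.

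Of the checkpoint genes, Bub1b differed most. Its levels in the 5 mice of the 2mo group averaged 2601 ± 142 CPM in oocytes and 142 ± 19 CPM in cumulus cells, and the mice did not overlap. The difference from the median gene was 3.87 in young, 3.90 in CR, 4.23 in 2mo and 4.71 in 2moNoH mice (adjusted p of the fitted fold at most 1.12e-07, edgeR). Ttk was at 324 ± 18.1 CPM in 2mo oocytes and 25.5 ± 4.56 CPM in their cumulus cells, and it lay 3.14, 3.74, 3.72 and 4.24 above the median gene in the same order of groups. Both lay above the other checkpoint genes in each group. Mad1l1 lay 1.58 to 1.93 above the median gene, Nek2 1.53 to 2.19, Bub3 0.94 to 1.81, Mad2l1 0.71 to 1.60 and Bub1 0.67 to 1.63. The oocyte and cumulus means of the mice did not overlap for any of these 7 genes in any of the 4 groups. The share of all genes without overlap was not counted, and in young mice only 2 labels gave each cell type.

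Of the passenger genes, Incenp lay 1.18 to 1.90 above the median gene in oocytes. Aurkb was the only member lower in oocytes, by its fitted fold, in every group. Its oocytes of CR mice averaged 18.6, 20.7 and 19.7 CPM in CR1, CR2 and CR3, and their cumulus cells 67.1 ± 5.34 CPM (n = 3), without overlap. Its fitted log2 fold change was -1.37 in CR (adjusted p = 2.5e-05) and -0.81 in 2mo mice (adjusted p = 1.06e-05, edgeR), which were called. In young mice it was -0.37 (adjusted p = 0.0788) and in 2moNoH mice -0.36 (adjusted p = 0.0806), not called with mice as units. Its difference from the median gene was -1.47 in CR, -0.76 in 2mo, -0.64 in young and -0.16 in 2moNoH mice, and was not tested. With libraries as units Aurkb was called lower in all 4 groups. In that fit 44.9% of all genes were called lower in young, 45.0% in CR, 46.1% in 2mo and 47.6% in 2moNoH mice. In 2moNoH mice its fold over libraries was -0.46, where the median of all genes was -0.27. In 2moNoH mice the cumulus level of Aurkb spread from 23.4 to 83.7 CPM over 8 mice, around an oocyte mean of 34.8 ± 3.92 CPM.

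**Figure D2:**
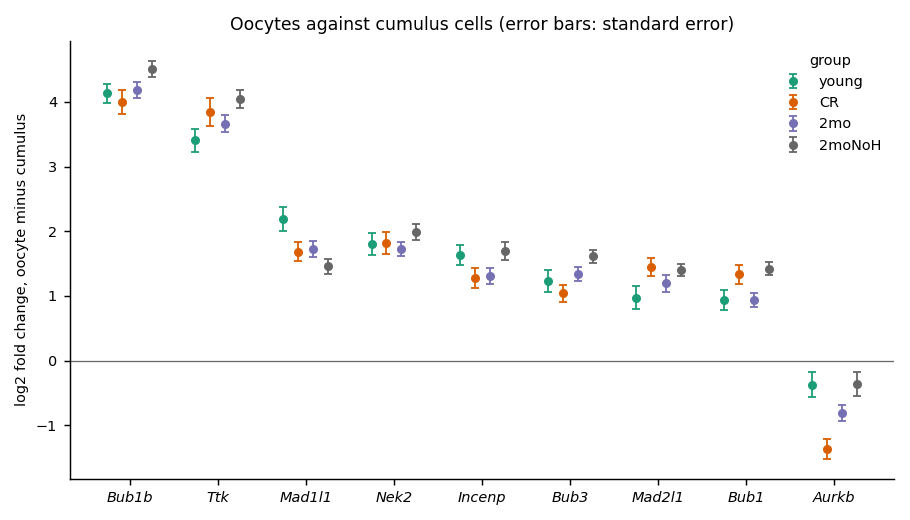
The vertical axis gives the log2 fold change of oocytes minus cumulus cells from edgeR on sums per mouse, for 9 genes along the bottom and 4 groups by colour, and bars are standard errors. Bub1b and Ttk stood between 3.40 and 4.51, the next 6 genes between 0.94 and 2.19, and Aurkb below 0 in every group; these values are not yet relative to the median of all genes, and Aurkc, near 0 in cumulus cells, is left out.

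The other genes of the pathways were counted from fixed lists. Of 15 passenger partners, which include the other subunits, their recruiters and related kinases, 15 were called higher in oocytes in young mice, 14 in CR, 12 in 2mo and 13 in 2moNoH mice, and 0, 0, 1 and 1 lower. Haspin, the kinase that marks histone H3 for the passenger complex, led with log2 fold changes of 4.5 to 5.38. Birc5 (survivin), the subunit that binds that mark, was 2.41 to 3.69 higher. Of 15 checkpoint partners, 10, 11, 11 and 11 were called higher and 3, 1, 4 and 2 lower. Spdl1 (spindly), which brings dynein to kinetochores, was 2.68 to 3.52 higher. Of 22 genes of the anaphase-promoting complex, its activators and inhibitors, 17, 14, 13 and 15 were called higher and 3, 4, 5 and 3 lower. Among these, Fbxo43 (Emi2), the inhibitor known from the arrest of the mature egg, had log2 fold changes of 9.39 to 10.5, and Pttg1 (securin) of 3.78 to 4.49. Of 16 proliferation genes 9, 8, 8 and 9 were called higher and 3, 3, 5 and 2 lower, with Ccnb1 (cyclin B1) 3.06 to 3.58 higher and Top2a 2.55 lower in young mice (log2 fold change -2.55). The list medians for passenger, checkpoint, anaphase-promoting complex and proliferation genes in 2mo mice were 1.71, 0.64, 1.05 and 0.28, beside -0.05 for all genes.

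For age, old were compared with young mice in the first set. With mice as units no member was called among oocytes, beside 0% of all 23100 genes, where 2 labels stood against 2. With libraries as units, the unit of the study's own tests, 2 of 10 members were called, beside 7.39% of all genes. Oocytes of 1 mouse are not independent animals, so p-values over libraries measure the spread between oocytes as well as mice. The members called were Ttk and Mad2l1.

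Ttk in oocytes averaged 258 CPM in Young1 and 283 in Young2, and 407 in Old1_2 and 355 in Old3. The old labels lay above the young, and the single oocytes overlapped, from 220 to 351 CPM in young and 224 to 613 in old mice. The log2 fold change was 0.54 over libraries (standard error 0.13, adjusted p = 0.0223) and 0.48 over mice (standard error 0.22, adjusted p = 0.555). Mad2l1 averaged 92.5 and 107 CPM in the young labels and 145 and 120 in Old1_2 and Old3, again without overlap of labels. With 2 labels against 2, 8 of 10 members had no overlap in these oocytes, and the share over all genes was not counted. The log2 fold change of Mad2l1 was 0.44 over libraries (standard error 0.13, adjusted p = 0.0376) and 0.38 over mice (adjusted p = 0.588). Leaving out 1 label at a time, both genes were called over libraries in 1 of 4 cases, without Old3. Without Old3, the lone old label being assumed to vary like the young, 5 members were called over mice, beside 18.3% of all genes in that fit.

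Nek2, Incenp and Mad1l1 lay the other way in old oocytes. Nek2 averaged 165 and 134 CPM in the young labels and 94.5 and 130 in Old1_2 and Old3, with a log2 fold change of -0.39 over libraries (adjusted p = 0.0575). Incenp averaged 196 and 175 CPM against 146 and 169 (log2 fold change -0.20, adjusted p = 0.301). Mad1l1 averaged 88.6 and 87.7 CPM against 64.5 and 81.1 (-0.29, adjusted p = 0.112). None of the 3 was called, and the Old1_2 label was the lower of the old labels for each. Bub1b gave 2249 and 2082 CPM against 1718 in Old1_2 and 2430 in Old3, so that the old labels lay on both sides of the young. Bub1 (log2 fold change 0.22 over libraries), Bub3 (0.29), Aurkb (0.20) and Aurkc (-0.01) were not called.

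Other RNA differed with age in the same oocytes. Their cumulus markers had a median of 5.70% (up to 26.6%) of the cumulus level in old and 1.87% (up to 14.9%) in young oocytes. Over libraries 4 of 5 luteal markers were called higher, led by Cyp11a1 (log2 fold change 4.71) and Lhcgr (4.39). The luteal markers summed to a median of 111 CPM in old and 81.1 CPM in young oocytes. Single old oocytes ranged from 49.3 to 825 CPM and young oocytes from 40.1 to 102 CPM. Of the old labels, 1 averaged 245 CPM, and the other lay between the young labels (71.5 and 84.3 CPM). The part of the cumulus and luteal markers in the values above was not tested. Of the pathway lists, over libraries, 2 of 15 checkpoint partners were called higher (Spc25, 0.61, and Nuf2, 0.41, of the Ndc80 complex) and 1 of 15 passenger partners lower (Rcc2, -0.74). Of the anaphase-promoting complex list 4 of 22 were called lower, namely Espl1 (separase, -1.06), Fzr1 (-0.77), Ube2s (-0.64) and Anapc2 (-0.52), and of the proliferation list 1 of 16 (Mcm5, -0.49). The list medians were 0.06, 0.02, -0.09 and 0.02 beside 0.11 for all genes.

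**Figure D3:**
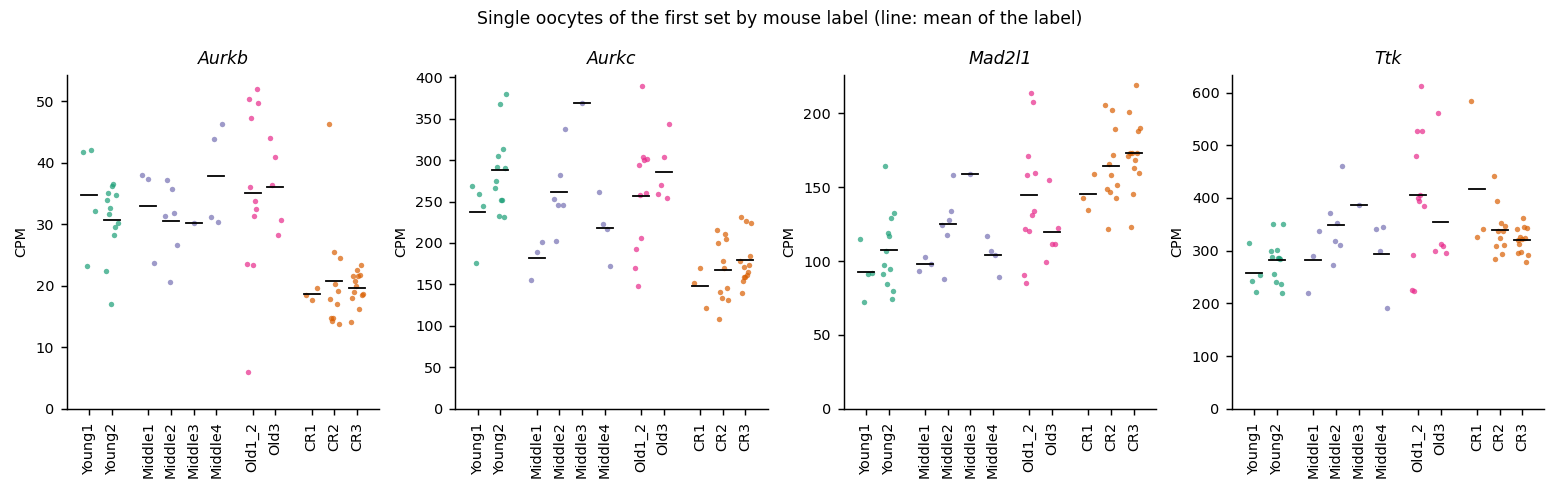
Each point is 1 oocyte of the first set, in CPM, placed by its mouse label along the bottom, with a line at the mean of the label. The CR label means sat below the middle label means for Aurkb and Aurkc, while single oocytes of these groups overlapped.

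In middle against young oocytes 0 of 10 members were called in either unit, beside 0% of all genes in both. The log2 fold changes lay between -0.30 and 0.27 over mice, with the smallest unadjusted p at 0.0693. Over libraries 1 member (Ttk) had an unadjusted p under 0.05, beside 1783 of all 22958 genes. In cumulus cells no member was called in old against young mice (beside 0.351% of all genes over mice and 3.96% over libraries) or in middle against young mice (beside 0% and 1.46%). Aurkb in cumulus cells averaged 52.8 and 52.6 CPM in Young1 and Young2 and 62.5 and 69.8 in Old1_2 and Old3. These labels did not overlap, which held for 5 of 10 members, and the share over all genes was not counted. The log2 fold change of Aurkb was 0.29 over libraries (standard error 0.10, adjusted p = 0.103). At an unadjusted p under 0.05, 3 members passed in old against young cumulus libraries and 0 over mice.

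In the second set, where 5 mice stood against 5, the oocytes of 14mo and 2mo mice differed in 1 member by the libraries and in none by the mice. Over mice 0.221% of all genes were called and over libraries 1.14%. The member was Aurkc. Its means were 305, 315, 299, 326 and 295 CPM in the 2mo mice (2mo1, 2mo2, 2mo34, 2mo35, 2mo36) and 266, 282, 260, 270 and 282 in the 14mo mice (14mo37 to 14mo41). Every 14mo mouse lay below every 2mo mouse. The log2 fold change was -0.21 over libraries (standard error 0.05, adjusted p = 0.0294) and -0.23 over mice (standard error 0.05, adjusted p = 0.0742). It was -0.26 among libraries whose names begin with B1 and -0.18 among those with B2, each over mice, and over libraries it was called in 4 of 10 cases with 1 mouse left out. The 4mo and 9mo oocytes averaged 285 ± 19.7 and 281 ± 3.09 CPM of Aurkc, between these groups, and the 9mo mice too did not overlap the 2mo mice (log2 fold change -0.14 over mice, adjusted p = 0.49).

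The other 9 members of the 14mo oocytes had log2 fold changes from -0.06 to 0.14 over mice. An unadjusted p under 0.05 was reached by 1 of 10 members, beside 2299 of all 22659 genes. The interval of the difference was narrow for the most abundant: Bub1b had a log2 fold change of -0.02 with a 95% interval of -0.11 to 0.07, and Ttk of -0.01 with -0.12 to 0.10. Mad2l1, higher in old oocytes of the first set, was at 140 ± 9.40 CPM against 133 ± 10.5 (0.03, interval -0.09 to 0.16). The checkpoint, passenger and anaphase-promoting complex lists had 0 genes called in either unit, and 2 of 16 proliferation genes were called higher over libraries (Ccnb2, 0.21, and Prc1, 0.16). Cumulus markers in these oocytes had a median of 2.03% of their cumulus level, against 1.36% in 2mo oocytes, and their part was not tested.

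At 4 and 9 months no member was called in oocytes over mice (beside 0% and 0.102% of all genes) or over libraries (beside 0.0126% and 0.16%), and the log2 fold changes over mice lay between -0.11 and 0.12 and between -0.14 and 0.09. In cumulus cells no member was called at 4, 9 or 14 months over mice (beside 0%, 0.00869% and 0.131% of all genes) or over libraries (beside 0.519%, 1.92% and 1.7%). Aurkc had too few counts to be tested at 9 and 14 months. The nearest to the threshold was Mad1l1 in 14mo cumulus cells, at 35.2 ± 5.32 CPM against 26.7 ± 2.13 in 2mo mice (log2 fold change 0.39 over libraries, adjusted p = 0.0695). The difference between the age effects in oocytes and cumulus cells, tested as an interaction for 14mo and 2mo, was called for 0 members in either unit (beside 0.0589% of all genes over mice and 0.745% over libraries). The nearest to the threshold was again Mad1l1, at -0.42 over libraries (adjusted p = 0.0732).

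Under calorie restriction Aurkb and Aurkc had lower mouse means in oocytes, and of all members only Aurkb passed the test over mice. Here 1 of 10 members was called over mice, a share near the 8.51% of all genes. Over libraries 5 of 10 were called, beside 30% of all genes. Aurkb averaged 33, 30.6, 30.1 and 37.9 CPM in Middle1 to Middle4, and 18.6, 20.7 and 19.7 CPM in CR1 to CR3. Each CR mouse lay below each middle mouse, while single oocytes overlapped, with CR oocytes up to 46.3 CPM and middle oocytes from 20.7 CPM (CR median 19, middle 31.6). The log2 fold change was -0.70 over mice (standard error 0.14, adjusted p = 0.0139) and -0.74 over libraries (standard error 0.11, adjusted p = 8.49e-07). With CR counts drawn down to the depth of the middle libraries it was -0.65 over mice (adjusted p = 0.0186). Without CR1, CR2 or CR3 the change of -0.65, -0.76 or -0.74 was not called over mice (adjusted p = 0.0592, 0.0538 and 0.0576), and with the left-out complex included it was -1.20 (adjusted p = 0.148). Over libraries it was called whichever of the 7 mice was left out.

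Aurkc averaged 182, 261, 369 and 218 CPM in Middle1 to Middle4, where Middle3 was a single oocyte, and 148, 167 and 179 in CR1 to CR3. The CR mice lay below all middle mice, Middle1 closely. The log2 fold change was -0.60 over mice (standard error 0.21, adjusted p = 0.11) and -0.50 over libraries (standard error 0.10, adjusted p = 6.05e-05), and without Middle3 it was -0.38 over mice. Aurkc remained the main Aurora kinase of the passenger complex by level, with 94.1% of Aurkb and Aurkc per kb in CR and 93.2% in middle oocytes. Incenp, the scaffold of both, was at 162 ± 14.0 CPM in CR and 166 ± 21.8 in middle oocytes, a log2 fold change of -0.01 over mice (95% interval -0.26 to 0.23).

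Of the checkpoint genes, Mad2l1 was higher in CR oocytes by the libraries. It averaged 98.0, 125, 159 and 104 CPM in Middle1 to Middle4 and 145, 164 and 173 in CR1 to CR3, and the CR mice lay above all middle mice but Middle3. The log2 fold change was 0.51 over libraries (standard error 0.08, adjusted p = 2.17e-06) and 0.46 over mice (standard error 0.17, adjusted p = 0.119), and 0.60 without Middle3 (adjusted p = 0.0108). Nek2 (0.26, adjusted p = 0.00873) and Bub1 (0.20, adjusted p = 0.018) were also called higher over libraries, in 5 and 4 of 7 cases with 1 mouse left out. Bub1 averaged 221, 205 and 196 CPM in CR1 to CR3 against 161 to 188 in the middle mice, without overlap, and its log2 fold change over mice was 0.28 (adjusted p = 0.14). Bub1b was not called, with a log2 fold change of 0.01 over mice (95% interval -0.19 to 0.21). Ttk (0.18), Bub3 (-0.15) and Mad1l1 (-0.10) were not called in either unit.

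The pathway lists were counted beside all genes, of which 5.65% were called higher and 2.86% lower over mice in CR oocytes, and 15.8% and 14.2% over libraries. From these libraries the study had already named Knl1, Spc25, Ndc80, Sgo1, Kif2c and Cenpf, and the members Bub1 and Nek2, as up-regulated. The lists were chosen with earlier results of these data known, so their counts are a description and not an independent test. Over mice, 5 of 15 checkpoint partners were called higher and 0 lower, among them Knl1 (0.74), the platform for Bub1 and Bub3, and Spc25 (0.69), Zwilch (0.68) and Ndc80 (0.64) of the outer kinetochore. Of 15 passenger partners 2 were called higher, Sgo1 (shugoshin, 0.59) and the microtubule depolymerase Kif2c (0.46), and 0 lower. Of 22 genes of the anaphase-promoting complex list 1 was called higher, its inhibitor Fbxo5 (0.47), and of 16 proliferation genes 5 higher and 1 lower, with Prc1 (0.76), Top2a (0.59), Cenpf (0.49) and Kif23 (0.49) highest. The medians were 0.29, 0.22, 0.04 and 0.18, beside 0.06 for all genes. Over libraries the counts of higher and lower calls were 9 and 1, 6 and 6, 7 and 5, and 6 and 1. Luteal markers were lower in CR oocytes over libraries for 4 of 5 genes (median log2 fold change -3.33). Yet their sums had near medians, 87.2 CPM in CR and 91.1 CPM in middle oocytes. Single CR oocytes summed to 41.7 to 171 CPM and middle oocytes to 48.8 to 1570 CPM. The part of the luteal markers in the members' values was not tested.

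**Figure D4:**
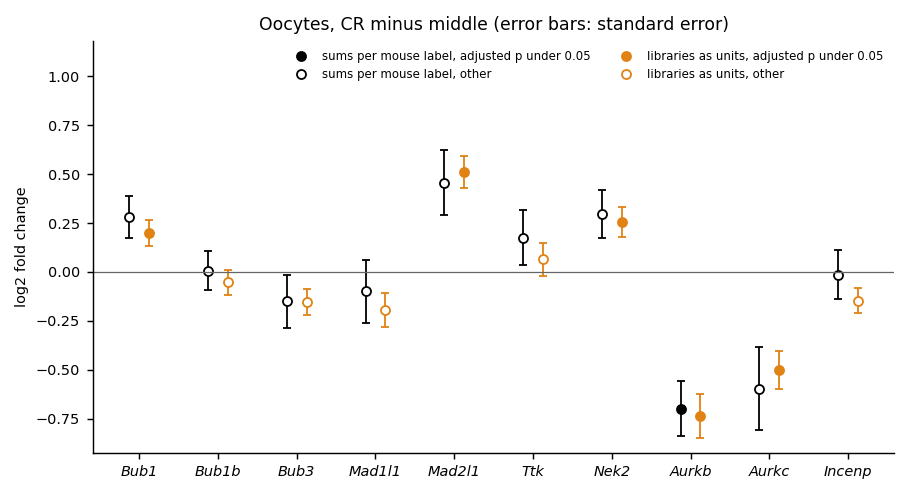
The vertical axis gives the log2 fold change of CR minus middle oocytes for the 10 genes along the bottom, over mice in black and over libraries in orange; filled points have an adjusted p under 0.05 and bars are standard errors. Aurkb, at -0.70 and -0.74, was the only gene filled in both.

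In cumulus cells no member was called under calorie restriction, beside 0% of all genes over mice and 3.6% over libraries. Aurkb averaged 67.1 ± 5.34 CPM in CR and 55.3 ± 4.40 CPM in middle cumulus cells, opposite in direction to the oocytes (log2 fold change 0.18 over mice, adjusted p = 0.762). The difference between the effect of the diet in oocytes and in cumulus cells was tested as an interaction. It was called for 0 of 10 members over mice (beside 0.0979% of all genes) and for 4 over libraries (beside 12.7%). These were Aurkb (-0.93, adjusted p = 1.76e-05), Mad1l1 (-0.43, adjusted p = 0.0423), Mad2l1 (0.38, adjusted p = 0.0336) and Incenp (-0.36, adjusted p = 0.0102). Over mice the interaction of Aurkb was -0.64 (adjusted p = 0.477), and DESeq2 called it (-0.91, adjusted p = 7.44e-06). The share of all genes that DESeq2 called is not given, so this call stands without a background. The scaling mattered for these values, since the median interaction of all genes was 0.20 over mice and moved by -0.27 with relative log expression scaling and by -0.33 with libraries as units. Relative to that median, Aurkb was -0.84 over mice and -0.80 over libraries, and Incenp -0.09 and -0.22.

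Hyperovulation was compared at 2 months, 2mo against 2moNoH, with 5 mice against 8. In oocytes 0 members were called in either unit (beside 0% of all genes over mice and 0.0299% over libraries), and the log2 fold changes over mice lay between -0.09 and 0.12. Bub1b was at 2601 ± 142 CPM with and 2567 ± 154 without hyperovulation, and Aurkc at 308 ± 12.7 and 299 ± 20.4, and the mice of the groups overlapped for every member.

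In cumulus cells 8 of 10 members had a positive log2 fold change with hyperovulation over mice. Over mice 0 were called, beside 0.952% of all genes. An unadjusted p under 0.05 was reached by 4 members, beside 3297 of all 24161 genes. Over libraries 6 were called, all higher, beside 13.2% of all genes. The median log2 fold change of the members was 0.36 over mice, beside -0.02 for all genes.

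Bub1 stood out from the mouse means. Its level ran from 86.0 to 113 CPM over the 5 hyperovulated mice and from 57.7 to 83.9 CPM over the 8 mice without hyperovulation. The groups did not overlap. Its log2 fold change was 0.44 over mice (standard error 0.13, adjusted p = 0.125) and 0.41 over libraries (adjusted p = 0.0111), and DESeq2 called it over mice (0.42, adjusted p = 0.0471). Bub1b was at 142 ± 19 and 113 ± 26.6 CPM, with overlap, and its log2 fold change was 0.37 over libraries (standard error 0.09, adjusted p = 0.00335). Bub3 (0.32, adjusted p = 0.0166) and Mad2l1 (0.33, adjusted p = 0.0259) were called over libraries too. Over mice Mad2l1 reached the threshold with the prefix of the library names (B1 or B2) as a covariate (0.39, adjusted p = 0.0327). The share of all genes called by DESeq2 or with this covariate is not given.

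Both passenger genes present in cumulus cells were higher as well. Incenp was at 70.1 ± 9.12 CPM with and 54.4 ± 16.6 without hyperovulation (log2 fold change 0.42 over libraries, adjusted p = 0.014). Aurkb was at 59.9 ± 5.63 and 44.9 ± 19.3 CPM (0.44, adjusted p = 0.0281), and the mice without hyperovulation reached from 23.4 to 83.7 CPM, on both sides of those with it. Its change was uneven between the prefixes, at 0.14 with B1 and 0.83 with B2 over mice, and both were short of the threshold. Nek2 (0.32, adjusted p = 0.0522) and Ttk (0.37, adjusted p = 0.14) were not called. Mad1l1 was the exception among the genes with counts, at 26.7 ± 2.13 and 30.4 ± 7.24 CPM (-0.18, adjusted p = 0.305), with -0.41 with B1 and 0.14 with B2 over mice.

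**Figure D5:**
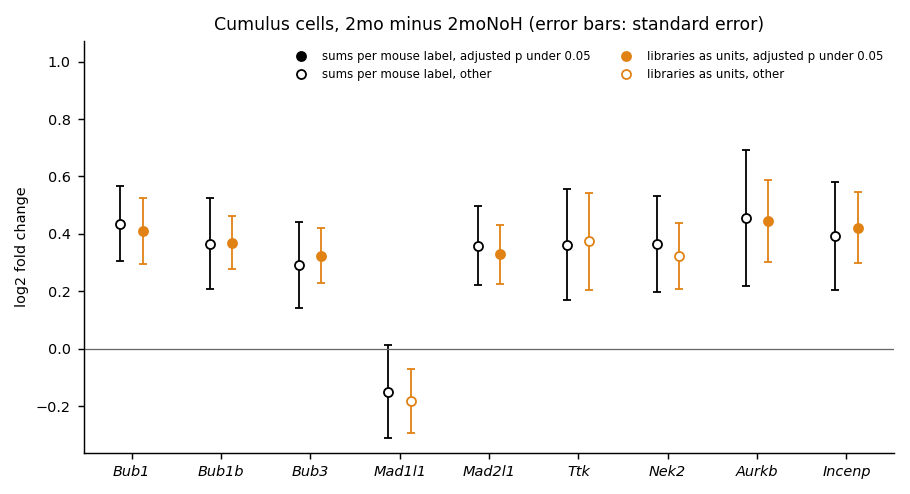
The vertical axis gives the log2 fold change of 2mo minus 2moNoH cumulus cells for 9 genes along the bottom, over mice in black and over libraries in orange; filled points have an adjusted p under 0.05 and bars are standard errors. The filled points of 6 genes, between 0.32 and 0.44, belong to the test over libraries, and Mad1l1 alone lay below 0.

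Genes of each pathway list were called higher in cumulus cells over libraries, where 6.16% of all genes were called higher and 7.01% lower. Of 16 proliferation genes 13 were called higher and 0 lower, led by Rrm2 (0.58) and Mcm3 (0.49) of DNA synthesis and the cyclins Ccna2 (0.53) and Ccnb1 (0.51). Of 15 passenger partners 7 were called higher and 0 lower, led by the kinase Plk1 (0.83) and its fellows of the spindle and centromere Tpx2 (0.60), Cdca2 (0.55) and Sgo2a (0.53). Of 22 genes of the anaphase-promoting complex list 10 were called higher and 0 lower, with Fbxo5 (0.55), Ube2c (0.47), Espl1 (0.45) and Anapc7 (0.41) highest, and of 15 checkpoint partners 2, Spc25 (0.52) and Knl1 (0.43), with 0 lower. The medians over libraries were 0.39, 0.43, 0.28 and 0.19, beside -0.04 for all genes. Over mice 0 genes of these lists were called. The summed level of 10 cumulus markers had a median of 103% of the set's median in 2mo and 64.0% in 2moNoH cumulus cells, with ranges of 55.1% to 136% and 27.7% to 128%, and its part in the members' values was not tested.

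The interaction asked whether hyperovulation went with another change in oocytes than in cumulus cells. Over mice 0 of 10 members were called (beside 0.2% of all genes), and over libraries 4 (beside 4.05%), all with a smaller change in oocytes: Bub1 (-0.50, adjusted p = 0.00458), Bub1b (-0.35, adjusted p = 0.0177), Incenp (-0.42, adjusted p = 0.0307) and Bub3 (-0.33, adjusted p = 0.0397). Over mice the value for Bub1 was -0.48 (adjusted p = 0.179). With libraries as units, the median interaction of all genes was 0.03.

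How far the members varied together was described by correlation. Correlations are of log2(CPM + 1) over libraries with the group means taken out, and such libraries share mice, name prefix and depth. Over 128 cumulus libraries of the second set, Aurkb and Incenp, which form 1 complex, had the highest of 45 values (r = 0.69), and Bub1b and Incenp followed (r = 0.59). Over 71 cumulus libraries of the first set the values for these pairs were 0.37 and 0.46. In oocytes of the second set (127 libraries), the highest was Mad2l1 with Ttk (r = 0.52), which was 0.64 in the first set (73 libraries). Aurkb with Incenp was 0.19 in oocytes of the second set and 0.01 in those of the first. Incenp with Mad2l1 was negative in oocytes of both sets, at -0.41 in the first and -0.29 in the second. Incenp with Nek2, the highest of the first set in oocytes (r = 0.70), was 0.12 in the second set.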

How the data were processed

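RamDA-seq libraries of single oocytes and cumulus cell pools were analysed. Per the labels and methods, the authors aligned reads with HISAT2 2.0.5 to GRCm38 and counted them with featureCounts 1.5.1 on GENCODE vM15, sharing multimapped reads, so the deposited values are expected counts (36.8% and 35.1% of nonzero values not whole in the first and second set). They were rounded where tests need whole counts, although the plan had named counts. The deposited RPKM values, reads per kb scaled to library size, computed by the authors, served only to derive gene lengths. No column lacked a sample and 0 pairs of libraries were identical.

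Of 401 libraries, 200 oocyte and 199 cumulus libraries were used. 1 complex was left out. Counts were summed per mouse label and tested with edgeR 4.0.16 (R 4.3.3; TMM, quasi-likelihood F test, Benjamini-Hochberg adjustment over the genes detected in 5 or more of the libraries compared, threshold 5%). Libraries as units, the study's own design, was the main alternative. DESeq2 1.42.0, other filters and factors, the prefix of the library names (B1 or B2, whose meaning the labels do not give) as covariate and leaving out each mouse were also tried. Each prefix alone, Aurkc with Gm12463 and libraries without each mouse were added after seeing the data. The scripts were tested on simulated data.

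Oocytes and cumulus cells came from the same mice, which pairs them by label. Deviations of the 41 labels with both cell types correlated with a median r of 0.05 (-0.04 to 0.14). All 10 members were named. From each pathway list, up to 4 genes with the largest changes among those past the threshold were named, and marker genes only where they moved with a result. Members and lists were chosen with earlier results of these data known.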

Additional observations from a re-analysis of the deposited data

Results flagged for a closer look

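Of 114 groups of 4 to 8 mouse means checked for a mean far from the rest (Dixon's test at 95%), 5 were marked, where chance alone marks about 1 in 20. In oocytes, Bub1 was at 188.6 CPM in 4mo27, above the 172.1 to 177.7 CPM of the other 4mo mice. Bub1b was at 2773 CPM in 14mo37, above 2606 to 2644 CPM in the other 14mo mice. Mad2l1 was at 100.5 CPM in 2moNoH8, below the 118.4 to 130.7 CPM of the other 2moNoH mice. In cumulus cells, Bub1 was at 69.2 CPM in 9mo22, below 86.1 to 88.9 CPM in the other 9mo mice, and Incenp was at 76.1 CPM in 9mo21, above 64.8 to 66.6 CPM.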

How the results depend on the processing

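Counts of called members changed as follows. With libraries as units they were 2 in oocytes of old against young mice (0 over mice), 5 in oocytes of CR against middle (1), 1 in 14mo against 2mo oocytes (0), 6 in 2mo against 2moNoH cumulus cells (0), and 4 and 4 in the interactions with calorie restriction and hyperovulation (0). DESeq2 gave 2 in CR oocytes, and 1 each in 14mo oocytes, 2moNoH cumulus cells and the 3 interactions. The share of all genes called is not given here for DESeq2 or most later settings, so those counts stand without a background. Without a filter on low counts CR oocytes had 2 and 14mo oocytes 1. With all deposited libraries CR oocytes had 0. The name prefix (B1 or B2) as covariate gave 1 in 2moNoH cumulus cells, and relative log expression factors 1 in the interaction with calorie restriction. Leaving out 1 mouse gave 0 to 5 in old oocytes (5 without Old3, where 18.3% of all genes were called), 0 to 2 in CR oocytes (0 without CR1, CR2 or CR3, and 2 without Middle1 or Middle3) and 0 to 1 in 14mo oocytes (1 without 2mo36). Incenp changed sign in the interaction with calorie restriction, from 0.11 over mice to -0.36 over libraries. The median of all genes moved too, from 0.20 to -0.13, and relative to it Incenp was negative in both, as given above. The cause was not tested. With the mouse as replicate block, pairing oocytes with cumulus cells, the counts stayed at 9, 10, 10 and 9 in the young, CR, 2mo and 2moNoH comparisons of cell types and at 0 in the 3 interactions. The young comparison of cell types could not be fitted without Young1 or Young2. Of the other settings, 318 counts stayed within 1.5 times. Among the members in oocytes, depth was lowest for Aurkb, with about 56 to 76 counts in a median oocyte.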
